A study of Mus musculus with 35 samples.

Results

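The genes described here are 9 interferon-stimulated genes, Stat2, Irf1, Irf7, Ifit1, Ifit2, Ifit3, Oasl2, Rsad2 and Usp18, out of 27962 gene names on a mouse whole-genome expression array. They were chosen by name: every probe that the array files assign to one of these symbols was taken, which gave 14 probes. RNA from 35 cultures or cell preparations was hybridised, 1 array each, in one colour (Cy3). Of these, 30 came from induced pluripotent stem (iPS) clones, 5 in each of 6 groups that differed in the cell of origin and in the reprogramming factors. The 3 origins were PaS cells of the bone marrow (mesenchymal stem cells sorted as CD45-, Ter119-, PDGFRa+ and Sca-1+), OP cells of the bone marrow (osteo progenitor cells, sorted as negative for CD45, Ter119, PDGFRa and Sca-1) and tail tip fibroblasts (TTF). The clones called 4F were infected with Oct3/4, Sox2, Klf4 and c-Myc, and those called 3F with Oct3/4, Sox2 and Klf4. By the study's methods, all cells of origin came from adult mice with a Nanog-GFP-IRES-Puro reporter, the factors were carried by retroviruses together with DsRed, and the clones were drug-selected for the reporter and then kept on SNL feeder cells, a line of mouse fibroblasts whose division had been blocked. The other 5 arrays were 1 of each cell of origin before infection and 1 each of the embryonic stem (ES) cell lines EB-3 and RF8.

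Interferons are secreted proteins that cells release when their sensors meet viral nucleic acid. Binding of a type I interferon to its receptor activates the kinases Jak1 and Tyk2, which phosphorylate Stat2. A complex that holds Stat2 and Irf9 then binds a short promoter element, the interferon-stimulated response element (ISRE), and it starts transcription of a large set of genes at once. Pluripotent stem cells are known for a weak response to interferon and for making little of it, whereas fibroblasts respond strongly. Of the 9 genes, Stat2 is part of that complex, Irf7 and Irf1 are transcription factors that the response itself induces, Ifit1, Ifit2 and Ifit3 encode RNA-binding antiviral proteins that lie side by side on chromosome 19, Oasl2 encodes a relative of the 2'-5' oligoadenylate synthetases, Rsad2 encodes the antiviral enzyme viperin, and Usp18 encodes a protease that removes Isg15 from proteins and dampens signalling at the interferon receptor.

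RefSeq promoter windows (build GRCm38.p6) were given for 8 of the 9 genes, all but Usp18. Only the 250 bases before each start site were searched. The core of the ISRE was searched as 2 copies of GAAA with any 2 bases between them, or of TTTC on the other strand, and the core of a second element of interferon-induced promoters, called GAS, as TTCNNNGAA, which reads the same on both strands. The ISRE core was found in 4 of the 8 genes, Ifit1, Ifit3, Rsad2 and Stat2, and in 3.46% of all 27025 genes with a window. The GAS core was found in Irf1 and Ifit2, and in 8.13% of all genes. The stretches around the matches are shown because ISRE and GAS are the element types that interferon signalling is known to use, with the matches in capitals and 5′ to 3′ on the gene's strand. Ifit1 and Ifit3 each held 2 ISRE cores, and no gene of the 8 held both patterns.
Ifit1, chr19:34640755-34640843: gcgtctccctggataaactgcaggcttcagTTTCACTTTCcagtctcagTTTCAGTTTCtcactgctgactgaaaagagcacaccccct
Ifit3, chr19:34583343-34583446: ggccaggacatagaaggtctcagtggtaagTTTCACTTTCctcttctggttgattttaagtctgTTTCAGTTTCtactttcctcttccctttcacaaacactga
Rsad2, minus strand, chr12:26456533-26456602: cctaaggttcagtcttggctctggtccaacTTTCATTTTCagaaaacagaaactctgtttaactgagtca
Stat2, chr10:128270248-128270315: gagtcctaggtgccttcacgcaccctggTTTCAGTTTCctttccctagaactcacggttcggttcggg
Irf1, chr11:53769894-53769962: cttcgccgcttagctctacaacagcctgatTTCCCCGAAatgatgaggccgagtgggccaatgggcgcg
Ifit2, chr19:34550444-34550491: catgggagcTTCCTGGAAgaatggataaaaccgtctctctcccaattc
A match is a run of letters and not a measured binding site, and Irf7 and Oasl2 held neither pattern in this window.

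Of the 14 probes, 3 gave no signal above background on either ES array while they did on at least 26 of the 30 clones, and their sequences are shown because the bounds against both ES lines rest on them. All 3 cross an exon boundary, since their 60 bases spread over more of the genome than their own length. The Irf7 probe lies on the minus strand of chromosome 7 between 137682028 and 137682378 (build mm7, as the array's annotation gives it), and the Rsad2 pair on the minus strand of chromosome 12 between 24286540 and 24289841 and between 24281379 and 24284417.
Irf7: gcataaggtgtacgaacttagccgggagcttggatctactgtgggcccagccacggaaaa
Rsad2, first of the pair: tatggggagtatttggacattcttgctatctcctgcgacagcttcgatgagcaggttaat
Rsad2, second of the pair: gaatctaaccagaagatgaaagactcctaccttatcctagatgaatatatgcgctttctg

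All levels are log2 of the processed spot signal minus the array's 75th percentile, so 0 is the level of a fairly bright probe and a difference of 1 is 2-fold. Levels of different probes are not comparable with one another, and each gene is described by its brightest probe unless another is named. Precision is limited by the number of arrays. Between 56.6% and 71.1% of all probes were well above background on an array. The 30 clones were scanned in 1 session on 8 slides, EB-3 shared a slide and a session with the 3 arrays of the cells of origin, and RF8 was scanned alone in another session. Clones were thus never scanned together with ES cells or cells of origin. Cell type and scan session cannot be told apart in any comparison of clones with either. Nanog was low in 4 clones, 4F-OP-iPS #3, #1 and #2 and 4F-TTF-iPS #1, with levels of −8.24, −6.13, −3.30 and −6.06, while the other clones were at −0.89 or higher. Since each array measures a whole culture, fewer cells of a type and less RNA per cell cannot be told apart.

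**Figure D1:**
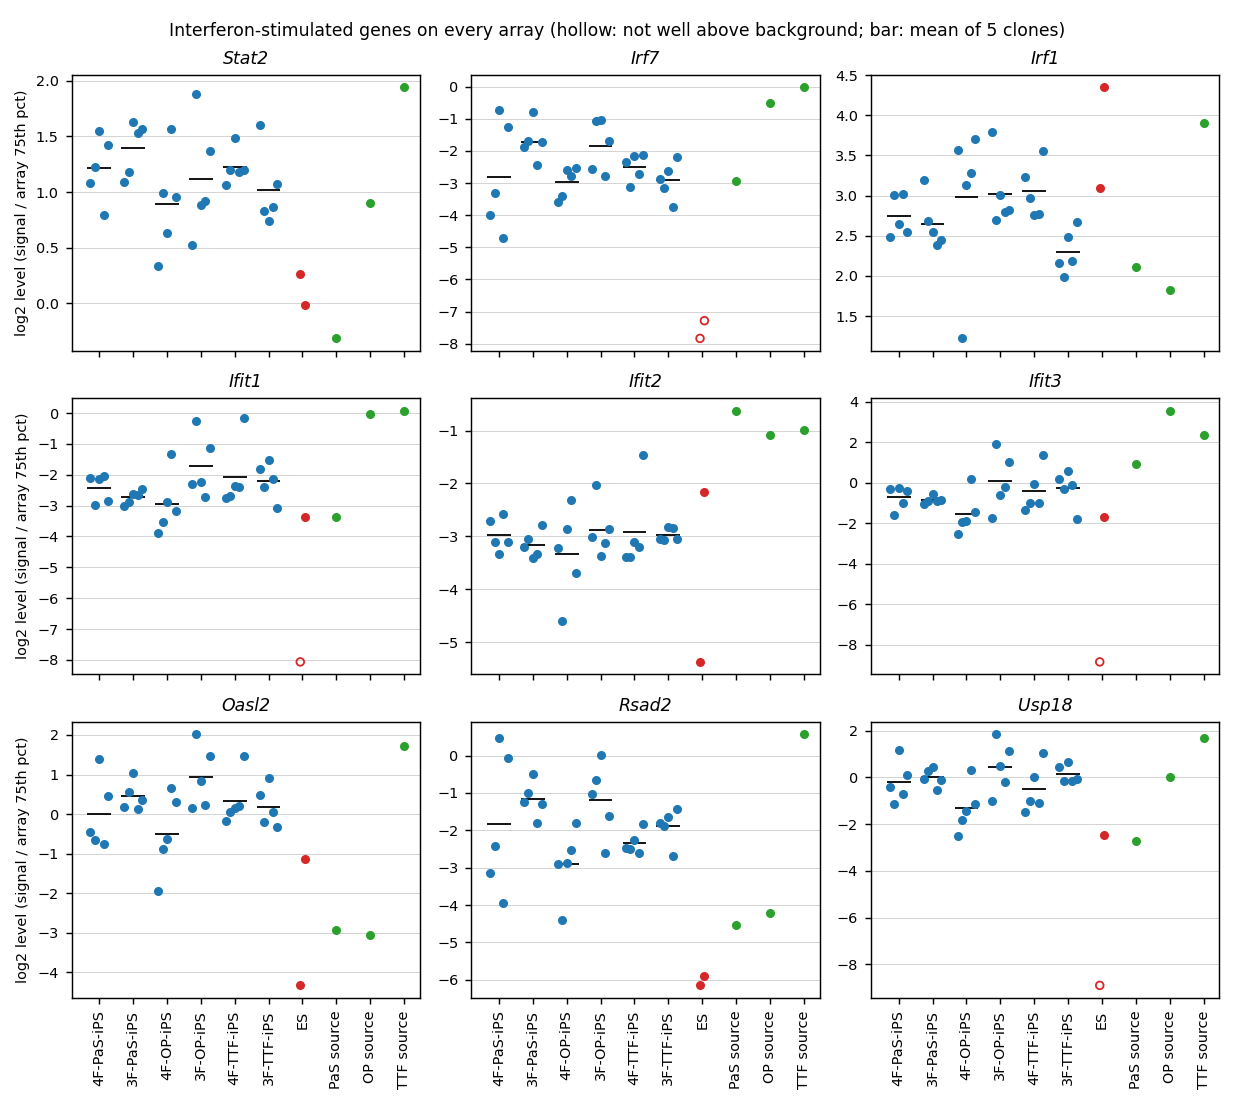
Level of each of the 9 genes on every array (log2 of signal over the array's 75th percentile, each panel with its own scale), by group. Blue points are single clones, the bar their mean over 5, red points the ES lines EB-3 and RF8, green points the cells of origin, and hollow points were not well above background. The ES points of Irf7 and Rsad2 lie below all 30 clones.

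The signalling factor Stat2 was the most even of the 9 genes over the clones. It ran from 0.34 to 1.88 with a median of 1.13, and its SD over 30 clones of 0.37 was larger than that of 33.8% of the probes tested. Irf7, the factor that amplifies the response, spread much more, from −4.73 in 4F-PaS-iPS #4 to −0.72 in 4F-PaS-iPS #3, with an SD of 0.96. Both ends of its range lay within 1 group, whose clones #1 to #5 were at −3.98, −3.31, −0.72, −4.73 and −1.26. In that group 3 clones were low and 2 high. The high clones, #3 and #5, shared a slide, #1 and #4 shared another, and #2 was on a further slide. Also on the slide of #3 and #5 were 4F-OP-iPS #1 and #2, at −3.59 and −3.40. The part of the slide in this split was not tested. The 3F-PaS-iPS clones spread less, at −1.89, −1.69, −0.78, −2.44 and −1.74. Irf1 was bright on all clones, with a median of 2.76, and ran from 1.22 in 4F-OP-iPS #2 to 3.80 in 3F-OP-iPS #1.

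Among the antiviral genes, Rsad2 had the widest range, from −4.40 in 4F-OP-iPS #2 to 0.47 in 4F-PaS-iPS #3, and its SD of 1.12 was larger than that of 89.5% of the probes tested, whose median SD was 0.47. Ifit3 ran from −2.51 to 1.90 (SD 1.01) and Ifit1 from −3.89 to −0.17 (SD 0.83). The 3 clones highest in Ifit1 were 4F-TTF-iPS #5 at −0.17, 3F-OP-iPS #2 at −0.24 and 3F-OP-iPS #5 at −1.12, and the same 3 clones were highest in Ifit3. Ifit2 was more even, between −4.61 and −1.47 with an SD of 0.53. Oasl2 ran from −1.93 to 2.02 (SD 0.81) and Usp18 from −2.50 to 1.85 (SD 0.97), both lowest in 4F-OP-iPS #1 and highest in 3F-OP-iPS #2. When each gene was scaled to its own mean and SD over the clones and the 9 were averaged, 3F-OP-iPS #2 stood 1.74 SD above the mean, followed by 4F-TTF-iPS #5 at 1.36, and 4F-OP-iPS #2 and #1 were lowest at −1.70 and −1.33. The last 2 are among the 4 clones low in Nanog.

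**Figure D2:**
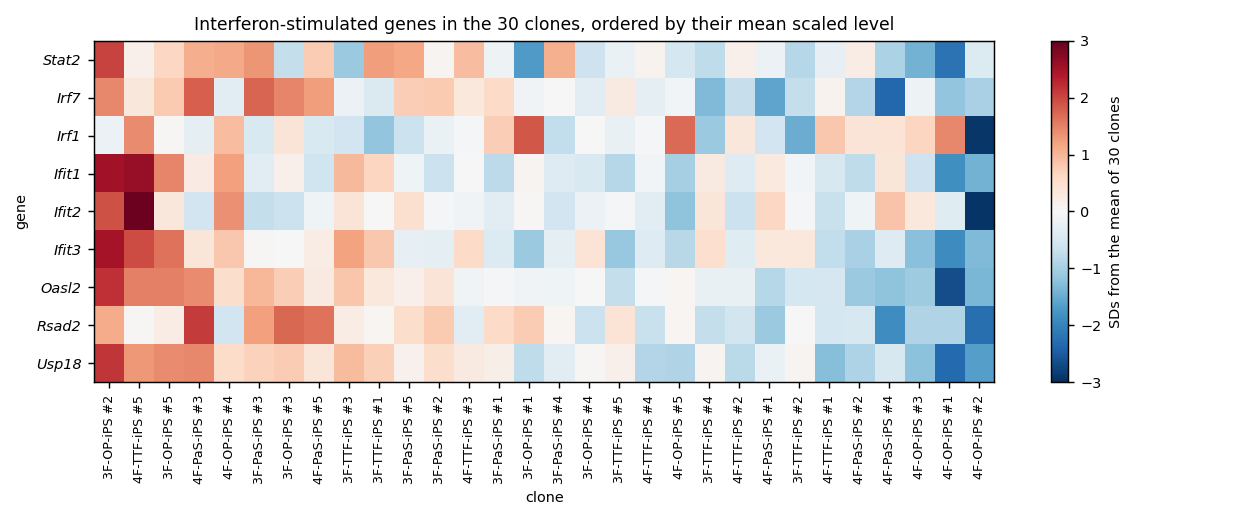
Level of each gene in each of the 30 clones, in SDs from its mean over the clones, with clones ordered from left to right by the mean of the 9 scaled levels. 3F-OP-iPS #2 and 4F-TTF-iPS #5 are dark red in the Ifit rows, 4F-PaS-iPS #3 is dark red in Irf7 and Rsad2, and the order of the Irf1 row differs from the others.

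Clones made with 3 factors were compared with those made with 4 within each cell of origin. No slide held both 3F and 4F clones of the same origin, so factor number and slide cannot be told apart within an origin. The limma fit took in 27623 probes, those with signal above background on all arrays of 1 or more groups, and a probe was called when its Benjamini-Hochberg adjusted p was under 0.05 and its difference at least 2-fold. In clones from PaS cells none of the 9 genes was called, none had an unadjusted p under 0.05, and 0.0181% of all probes were called. The largest difference was that of Irf7, 1.09 ± 0.54 (SE, n = 5 and 5, limma adjusted p = 0.292), which rests on the split within the 4F-PaS-iPS clones given above.

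In clones from OP cells all 9 genes had a higher mean with 3 factors than with 4, but none was called, against 4.51% of all probes. Their median difference was 1.24 on the log2 scale and that of all probes tested was 0.02, and 4 of the 9 had an unadjusted p under 0.05, as did 24.6% of all probes. The Usp18 levels of 3F-OP-iPS #1 to #5 were −0.99, 1.85, 0.49, −0.21 and 1.15, and those of 4F-OP-iPS #1 to #5 were −2.50, −1.84, −1.43, 0.29 and −1.13. The 2 groups overlapped, since 4F-OP-iPS #4 lay above 2 of the 3F clones, and the difference of 1.78 ± 0.75 (SE) had a limma adjusted p of 0.138. Rsad2 was at −1.03, −0.65, 0.03, −2.60 and −1.63 in the 3F and at −2.90, −4.40, −2.88, −2.52 and −1.81 in the 4F clones, a difference of 1.73 ± 0.61 (limma adjusted p = 0.0729). Oasl2 was at 0.16, 2.02, 0.84, 0.23 and 1.48 in the 3F and at −1.93, −0.87, −0.63, 0.66 and 0.29 in the 4F clones, a difference of 1.44 ± 0.52 (limma adjusted p = 0.0842). The remaining differences over 2-fold were those of Ifit3 (1.59 ± 0.84), Ifit1 (1.24 ± 0.62) and Irf7 (1.14 ± 0.54). The calls of Usp18 and Oasl2 differed between fits: with the clones alone in the fit both were called, at limma adjusted p of 0.0305 and 0.0423, whereas neither was with the slide as a random block or without the 4 clones low in Nanog, 3 of which are 4F-OP-iPS clones. The mean level of 16 fibroblast markers ran from 1.39 to 3.59 in the 3F-OP-iPS clones and from 0.87 to 2.32 in the 4F-OP-iPS clones. In the same order, blood and macrophage markers ran from −3.78 to −3.29 and from −4.08 to −3.64. Pluripotency markers ran from 1.42 to 3.02 and from −3.01 to 3.78, and endothelium markers from −4.17 to −2.76 and from −4.79 to −2.22. The part of any of these markers in the differences was not tested.

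In clones from TTF none of the 9 genes was called by its main probe, against 5.77% of all probes, and the median difference was −0.11. Irf1 had the largest, with levels of 2.16, 1.98, 2.49, 2.19 and 2.67 in 3F-TTF-iPS #1 to #5 and of 3.23, 2.97, 2.75, 2.77 and 3.55 in 4F-TTF-iPS #1 to #5. All 5 of the 3F clones lay below all 5 of the 4F clones, but the difference of −0.76 ± 0.33 (SE) had a limma adjusted p of 0.140. The second Irf1 probe was called lower in the 3F clones, at −1.08 ± 0.35 (limma adjusted p = 0.0463). Slides limit this comparison as they do those in PaS and OP clones. In each TTF group 4 of the 5 clones shared a slide of their own. With the slide as a random block 7 probes of the whole array were called in place of 1595.

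**Figure D3:**
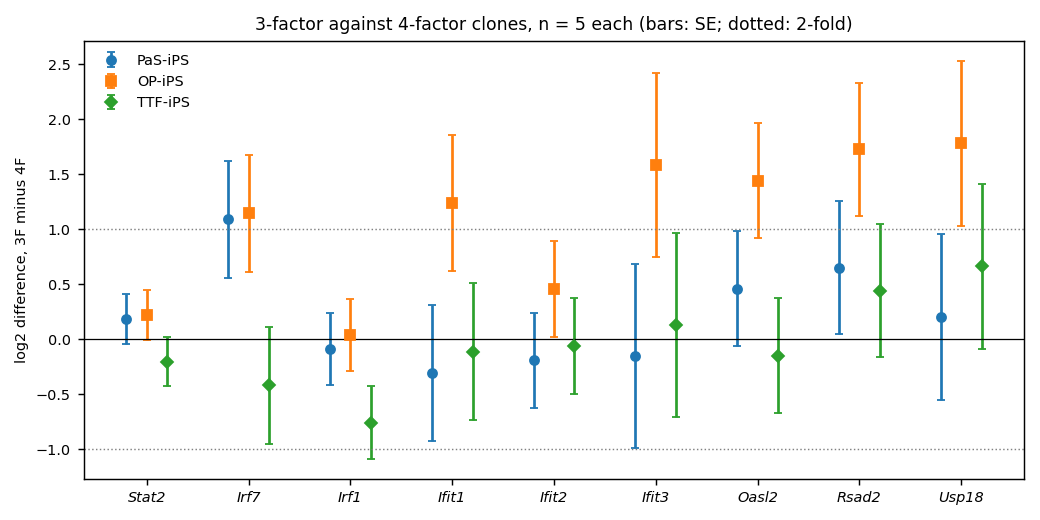
Difference in mean level between 3F and 4F clones (log2, 3F minus 4F, 5 clones each) of the 9 genes, by cell of origin, with SE bars from the limma fit and dotted lines at 2-fold. All OP-iPS points lie above 0, and none of the main probes plotted passed the test in any of the 3 origins.

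The difference between 3F and 4F clones was itself compared between origins. None of the 9 genes differed between PaS and OP (limma, lowest adjusted p = 0.337, none at an unadjusted p under 0.05, 0.648% of all probes called) or between PaS and TTF (lowest adjusted p = 0.272, none at an unadjusted p under 0.05, 0.583% of all probes). Between OP and TTF the signed difference was more positive in OP for all 9 genes, 2 of them at an unadjusted p under 0.05 (3.72% of all probes), but no gene was called, as none was among all probes (0.00%). Between PaS and OP the signed difference was likewise more positive in OP for all 9 genes, with a median of −0.98 for PaS minus OP.

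The cell of origin, averaged over 3F and 4F clones, gave no called gene among the 9. Between PaS-iPS and OP-iPS clones (10 and 10), the differences ran from −0.31 to 0.55, none was called and 1.60% of all probes were. Between PaS-iPS and TTF-iPS clones they ran from −0.45 to 0.62, with none called and 0.500% of all probes. Between OP-iPS and TTF-iPS clones they ran from −0.38 to 0.33, with none called and 0.0217% of all probes. In these 3 comparisons none of the 9 had an unadjusted p under 0.05 (limma).

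Against the ES arrays, 7 of the 9 genes were called higher in the clones and none lower, where 36.2% of all probes were called and 17.2% were called higher. The median difference of the 9 was 3.37 on the log2 scale (1.16 without EB-3) and that of all probes −0.11. Above background on both ES arrays were Rsad2, which differed by 4.14 ± 0.70 (SE, 30 clones against 2 arrays), Oasl2 (2.97 ± 0.60) and Stat2 (1.02 ± 0.26), the last with a limma adjusted p of 0.0018. The fitted differences of Usp18 (5.44 ± 0.87), Ifit3 (4.64 ± 0.97) and Ifit1 (3.37 ± 0.72) rest in part on EB-3, where none of these 3 was well above background, so their sizes are uncertain and carry no rank. Irf7 was not well above background on either ES array, so only a bound holds for it, at least 17.4-fold higher in the clones. The 2 other Rsad2 probes gave bounds of at least 6.63-fold and 5.22-fold higher in the clones for the same reason. Ifit2 was not called by its main probe (0.73 ± 0.50, limma adjusted p = 0.229) but was by its second, dimmer one (limma adjusted p = 0.0215), which was above background on 20 clones and not on EB-3. Against RF8 alone that probe had 12 clones above the array and 18 below. Irf1 was the exception in direction, at −0.93 ± 0.38, and stayed under 2-fold. Sizes were smaller for most genes with the background corrected by normexp, which adds an offset that pulls dim signals together. Usp18 then differed by 2.53, Oasl2 by 2.12, Ifit3 by 1.91, Rsad2 by 1.57 and Irf7 by 1.28. The value for Irf7 is smaller than its bound above, so that bound depends on how background is treated. Ifit1 (1.11, limma adjusted p = 0.0603) and Stat2 (0.94, under 2-fold) were no longer called with normexp.

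The 2 ES lines were unlike each other in these genes, so each is described singly. On the EB-3 array 8 of the 9 genes lay below all 30 clones, as did 22.0% of all probes tested. Usp18 was at −8.90, Ifit3 at −8.85, Ifit1 at −8.07 and Irf7 at −7.84 there, all not well above background, which put the mean of the clones at least 81.8-fold, 62.9-fold, 18.9-fold and 17.6-fold higher. Oasl2 was at −4.33, Rsad2 at −6.15 and Ifit2 at −5.37, each above background but under every clone. Irf1, at 3.09, was the one gene inside the clones' range.

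On the RF8 array 3 of the 9 genes lay below all 30 clones, as did 18.4% of all probes tested. These were Irf7 at −7.29 (not well above background, at least 17.2-fold higher in the clones), Rsad2 at −5.89 and Stat2 at −0.02. The other antiviral genes were within the clones' range at its lower end: Ifit3 at −1.67 had 25 clones above it, Ifit1 at −3.37 had 28, and Oasl2 at −1.14 and Usp18 at −2.46 had 29 each. Ifit2 at −2.16 lay above 28 of the clones and Irf1 at 4.35 above all of them. By the second Irf1 probe 3 clones lay above RF8, and the mean of the clones was lower than RF8 by 0.82. When EB-3 was left out of the fit, Irf7, Rsad2 (4.01), Usp18 (2.22, limma adjusted p = 0.0397) and Stat2 (1.16) were still called higher in the clones and Irf1 was called lower (−1.56, limma adjusted p = 0.018), whereas Ifit1 (1.02), Ifit3 (1.05) and Oasl2 (1.37) were not called. When RF8 was left out, Ifit2 was called as well (2.34) and Stat2 was not (0.88). Both of these fits assume that the single ES array left varies as the clones do. Irf7, Rsad2 and Usp18 were thus called with either ES line, Rsad2 by 4.01 and 4.27. The sizes for Irf7 against both lines and for Usp18 against EB-3 are the bounds given above.

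Markers of 4 cell types were set beside these values. Of 18 fibroblast markers, 11 were above background on EB-3 and 18 on RF8, and between 16 and 18 on each clone. The mean level over the 16 fibroblast markers that were above background on all clones was −3.94 on EB-3, 1.23 on RF8 and between 0.87 and 3.59 on the clones. The collagen gene Col1a1 was at −4.62 on EB-3, 3.13 on RF8 and 4.07 in the median clone, and Postn, Lum, Fap and Prrx1 were between −8.91 and −8.79 on EB-3, not well above background. The mean of 11 blood and macrophage markers was −5.95 on EB-3, −4.87 on RF8 and between −4.13 and −2.87 on the clones, where 7 or 8 of the 11 were above background against 4 and 7 on the ES arrays. Csf1r, a receptor of macrophages, was above background on all 30 clones and on neither ES array, whereas Ptprc was on none of these arrays. Laptm5 and Fcer1g were above background on both ES arrays. On EB-3 they were at −0.60 and −2.65, above the clone medians of −1.79 and −2.86, and on RF8 at −3.39 and −4.45, below these medians. The mean of 8 pluripotency markers was 5.18 on EB-3, 3.52 on RF8 and between −3.01 and 3.90 on the clones. The mean of 5 endothelium markers was −5.39 on EB-3, −1.85 on RF8 and between −4.79 and −2.22 on the clones. Of the 4 list means, those of the blood and macrophage and of the endothelium markers had both ES arrays outside the clones' range. For endothelium EB-3 lay below that range and RF8 above it. The means of the fibroblast and pluripotency markers set EB-3 apart and had RF8 within the clones' range. The part of any of these markers in the difference between clones and ES cells was not tested.

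**Figure D4:**
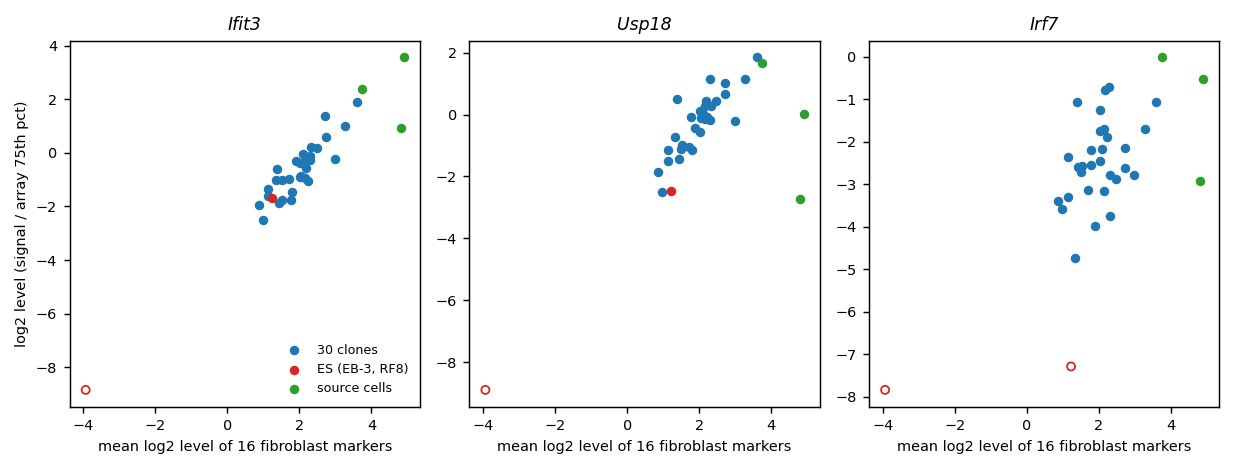
Level of Ifit3, Usp18 and Irf7 (log2, vertical) against the mean level of 16 fibroblast markers (log2, horizontal) on all 35 arrays, with clones in blue, ES lines in red and cells of origin in green, and hollow points not well above background. RF8 lies at the lower end of the clones for Ifit3 and Usp18 and far below them for Irf7.

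The cells of origin had 1 array each, so their values carry no test. In TTF 7 of the 9 genes lay above all 30 clones, as did 19.7% of all probes tested, and 8 were at least 2-fold above the mean of the 10 TTF-iPS clones, as were 18.8% of all probes tested, while none was 2-fold below it (29.4% of all probes). Irf7 was at −0.01, Rsad2 at 0.58, Usp18 at 1.68, Oasl2 at 1.72 and Stat2 at 1.94 in TTF. The 2 other Rsad2 probes had 8 and 4 of the 30 clones above the TTF array. Markers of blood cells and macrophages moved with this array: all 11 were above background on it with a mean level of 5.55, against 4 to 8 of 11 on every other array, and Ptprc, the common leukocyte antigen, was at 4.15 there and above background on no clone. Their part in the TTF levels was not tested. In OP cells, 4 genes were at least 2-fold above the mean of the OP-iPS clones (19.8% of all probes) and 3 at least 2-fold below it (26.3%). The 4 were Ifit3 at 3.56, the highest level of that gene on any array, Ifit1 at −0.03, Ifit2 at −1.08 and Irf7 at −0.52, and the 3 were Oasl2 at −3.06, Rsad2 at −4.20 and Irf1 at 1.83. In PaS cells, 2 genes were at least 2-fold above the mean of the PaS-iPS clones (16.7% of all probes), Ifit2 at −0.62 and Ifit3 at 0.94, and 4 were at least 2-fold below it (29.0%), Oasl2 at −2.93, Rsad2 at −4.53, Usp18 at −2.71 and Stat2 at −0.32. Those 4 lay below all 30 clones, as did 28.9% of all probes tested.

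Oasl2 and Rsad2 were thus lower in both bone marrow cells of origin than in the mean of the clones made from them, by 3.16 and 3.04 for PaS and by 3.28 and 2.16 for OP on the log2 scale, and higher in TTF than in its clones, by 1.45 and 2.69. Neither gene was called between clones of different origins. By its main probe Ifit2 was higher in every cell of origin than in all 30 clones, and by its second probe 1 clone lay above PaS cells. EB-3 was scanned with the cells of origin on 1 slide and was lower than all 3 of them for every gene of the 9 other than Irf1 and Stat2.

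Over the 30 clones the genes varied together in part. All 36 pairs were correlated, with permutation p-values from 100000 resamples adjusted over the 36, and 20 pairs had an adjusted p under 0.05, all with a positive r. The closest were Ifit1 with Ifit3 (r = 0.90, rho = 0.82), Usp18 with Oasl2 (r = 0.90, rho = 0.86), Irf7 with Rsad2 (r = 0.88, rho = 0.87) and Ifit3 with Usp18 (r = 0.87, rho = 0.81). For each of these pairs both raw permutation p-values were 1e-05, the smallest that 100000 resamples can give, and the adjusted p of r was 5.14e-05. Although Irf7 and Rsad2 followed each other, neither reached an adjusted p under 0.05 with Ifit1 (r = 0.21 and 0.21), Ifit2 (0.03 and 0.12) or Ifit3 (0.32 and 0.31), while Oasl2 and Usp18 passed with all 5 of these genes, Ifit2 with Oasl2 narrowly (r = 0.41, adjusted permutation p = 0.0449), although not under every alternative. Irf1 had no adjusted p under 0.05 with any other gene, with r between −0.28 and 0.35. The difference between these correlations was not tested.

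Fewer pairs passed when slides or groups were taken out. After the levels were centred on slide means and permuted within slides, 15 of the 36 pairs passed, and after centring on the 6 group means and permuting within groups, 19 did. Without the 2 clones farthest from the median of the first gene of each pair, 15 passed, with r of 0.84 for Ifit1 and Ifit3, 0.83 for Irf7 and Rsad2 and 0.84 for Usp18 and Oasl2. Rsad2 no longer passed with Usp18 or Oasl2 after centring on slides (adjusted permutation p = 0.108 and 0.128). Its r with them was 0.61 and 0.60 then, and 0.64 and 0.67 before centring. Ifit2 with Oasl2 failed after centring on slides (adjusted permutation p = 0.138), after centring on groups (0.190) and without the 2 clones (0.382). Ifit2 with Usp18 failed without the 2 clones (adjusted permutation p = 0.0728) and with quantile normalization (0.0821). Within the 10 clones of each origin, Irf7 with Rsad2 had r = 0.98 in PaS, 0.85 in OP and 0.45 in TTF, and Ifit1 with Ifit3 had 0.52, 0.93 and 0.92. Ifit1 with Irf7 had −0.36, 0.75 and 0.17, and Ifit2 had −0.68, 0.55 and 0.82 with Oasl2 and −0.47, 0.64 and 0.74 with Usp18, so these pairs differed in sign between origins.

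**Figure D5:**
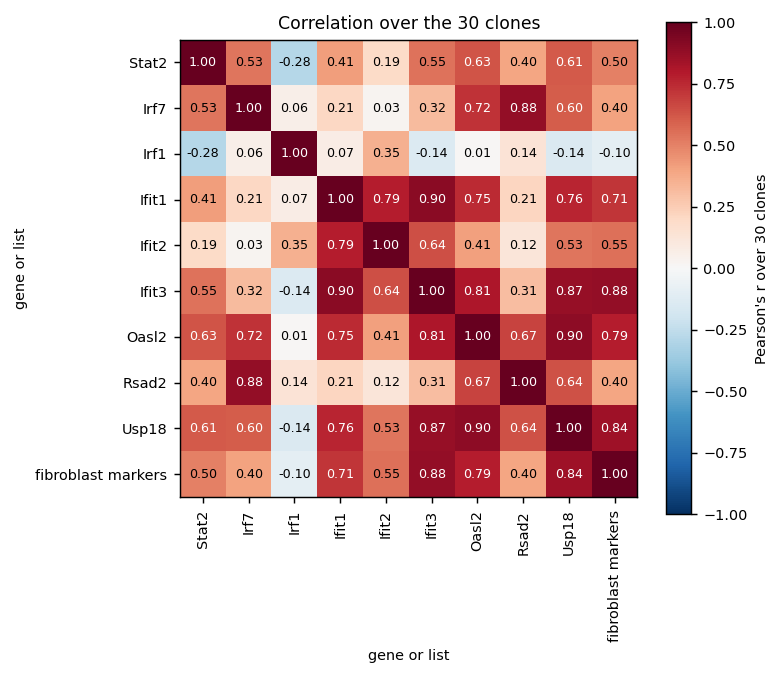
Pearson's r between the levels of the 9 genes, and with the mean of 16 fibroblast markers, over the 30 clones. Irf7 and Rsad2 correlate at 0.88 and the 3 Ifit genes with Usp18 and Oasl2 between 0.41 and 0.87, and the row of Irf1 is pale throughout.

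The members also varied with the fibroblast markers over the clones. Of 9 correlations with the mean of the 16 markers, 8 had an adjusted p under 0.05 (permutation, adjusted over 9), led by Ifit3 (r = 0.88, rho = 0.86), Usp18 (r = 0.84, rho = 0.79) and Oasl2 (r = 0.79, rho = 0.75), and followed by Ifit1 (r = 0.71) and Ifit2 (r = 0.55). Ifit3 kept r = 0.82 without the 2 clones farthest from the median of the markers, 0.90 after centring on group means and 0.87 after centring on slide means. Irf7 (r = 0.40, rho = 0.34) and Rsad2 (r = 0.40, rho = 0.37) passed narrowly, both with an adjusted permutation p of 0.0343, and neither passed after centring on groups (0.31 and 0.21), after centring on slides (0.35 and 0.24) or without the 2 clones (0.29 and 0.36). Within the 10 clones of PaS, OP and TTF, r with the markers was 0.77, 0.55 and −0.10 for Irf7, 0.74, 0.38 and 0.49 for Rsad2, −0.07, 0.81 and 0.77 for Ifit1, −0.49, 0.67 and 0.67 for Ifit2 and 0.64, 0.92 and 0.89 for Ifit3. Irf1 did not pass (r = −0.10, adjusted permutation p = 0.611).

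The genes whose main probe was most like the average of the 9 scaled genes over the 30 clones, among 18414 others tested, were Rtp4 (r = 0.96), Isg15 (0.93), Gbp4 (0.92), Ifi47 (0.89) and Ifi205 (0.88), then an unnamed transcript, Lgals3bp (0.82), Prrx1 (0.82), Tdrd7 (0.81) and Il1r1 (0.81). The 95th percentile of all r was 0.49. Isg15 encodes the ubiquitin-like protein that Usp18 removes, Gbp4 and Ifi47 encode interferon-induced GTPases, and Prrx1 encodes a transcription factor of mesenchymal cells and is itself one of the 18 fibroblast markers. Rtp4 ran from −1.22 to 3.10 over the clones and was at −4.80 on EB-3 and 0.12 on RF8. Isg15 ran from −2.11 to 3.30 and was at −4.65 on EB-3 and −0.14 on RF8.

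The rest of the pathway was taken from a list of 76 genes, of which 71 had a probe and 62 were tested. Of the ligands, 4 of the 10 with a probe were above background on no clone and 1 on all 30. All 7 receptor chains and kinases were above background on all clones and on both ES arrays. Against ES cells 25 of the 62 were called higher in the clones and 2 lower, where 17.2% of all probes were called higher and 36.2% in all, with a median difference of 0.80 against −0.11 for all probes. Irf9, which binds DNA in the complex with Stat2, was higher by 1.00 ± 0.24 (SE), and Isg15 by 2.73 ± 0.77 (limma adjusted p = 0.0042). The 5 with the largest fitted differences included Lgals3bp (5.35), a secreted glycoprotein, and Isg20 (5.04), an RNA exonuclease, both above background on all clones and both ES arrays. The other 3 were Mx2, an antiviral GTPase, and Sp100, a nuclear body protein, which were not well above background on EB-3, and Ifi44, which was not on either ES array, so their sizes and their places in this order are uncertain. Parp14 and Parp9, which transfer ADP-ribose, were called lower, at −1.35 and −1.54. Without EB-3, 16 of the 62 were called higher and 4 lower, and with normexp 13 higher and 2 lower.

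Between 3F and 4F clones none of the 62 genes was called in PaS-iPS clones (0.0181% of all probes), and the 9 at an unadjusted p under 0.05 in limma stood beside 17.3% of all probes. In OP-iPS clones 6 were called higher with 3 factors and none lower, where 4.51% of all probes were called, with Irf8 (3.05), Ifi44 (2.91), Ifi47 (2.34), Oasl1 (1.81) and Ifng among them, and Isg15 at 2.07 ± 0.67 had a limma adjusted p of 0.053. The count moved with the fit: 1 of the 62 was called higher with the slide as a random block or with normexp, none without the 4 clones low in Nanog, 12 without either ES array and 13 with the replicate block. In TTF-iPS clones 4 were called higher with 3 factors, Irf8 (2.75), Socs1 (1.62), a negative regulator of the kinases, Ifng and Ifnk, and Samd9l was called lower, where 5.77% of all probes were called. None was called with the slide as a random or a fixed block, and the balance of directions turned to 3 higher and 4 lower with quantile normalization and to 2 higher and 5 lower without the 4 clones low in Nanog. Ifng was above background on 14, Ifnk on 11 and Samd9l on 16 of the 30 clones, so they were tested through the groups where they are high, and no size is given for their differences. Without these 3 genes the calls were 5 higher in OP-iPS clones and 2 higher and none lower in TTF-iPS clones. Between PaS-iPS and OP-iPS clones Ifnk and Socs1 (1.30) were called higher in PaS-iPS and the sensors Tmem173 (−1.88) and Dhx58 (−1.14) lower, where 1.60% of all probes were called. Without Ifnk 1 gene was called higher. With the slide as a fixed block 1 of the 62 was called higher and none lower, with normexp none higher and 2 lower, and without the 4 clones low in Nanog none higher and 5 lower. Between TTF-iPS clones and either of the others none was called, while 0.500% and 0.0217% of all probes were. In limma 8 and 6 of the 62 had an unadjusted p under 0.05, beside 16.6% and 10.2% of all probes.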

How the data were processed

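Total RNA was labelled with Cy3 and hybridised to Agilent mouse arrays, and the authors deposited each array's Feature Extraction output, a background-subtracted signal intensity per spot, and a table of log2 values from GeneSpring GX, which is centred per probe on the median over arrays. For the present report control spots and outlying spots were left out, log2 of the processed signal was taken, each array's 75th percentile was subtracted and spots of 1 probe were averaged. No array duplicated another (highest correlation 0.991). Groups followed the sample labels. limma 3.58.1 (R 4.3.3) fitted 7 groups, the ES lines forming 1, to 27623 of 41174 gene probes. Labels do not say whether clones of a group came from separate animals, so p-values measure the spread between clones. The fit was tested on simulated data. Correlations used Python 3.11.15 with 100000 permutations. Alternatives were normexp background (offset 50), quantile normalization, the authors' log2 table, other probe filters and fold limits, slide and replicate blocks, each other probe and each array left out. 2 were added after seeing the data: replacing 10 outlying background values before normexp, and leaving out 4 clones low in Nanog.

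The 9 genes and all lists were chosen with earlier results of these data known. Named genes were the 9, and from the pathway list Irf9 and Isg15, with another gene not reported here, plus up to 5 called genes per direction with the largest difference, and the 10 other genes most like the mean of the 9. A gene's main probe was the one whose mean over all clone and ES arrays was highest. The second Ifit3 probe is annotated to another transcript and may read a close copy of the gene. Some list genes bore older names on the array, and probe positions are those of build mm7.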

Additional observations from a re-analysis of the deposited data

Results flagged for a closer look

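In the 6 groups of 5 clones, 54 combinations of gene and group were checked for a clone that stood apart from the other 4, and 5 did. Chance alone marks about 1 in 20. In the 4F-TTF-iPS group clone #5 stood above the others in Ifit1 (−0.17 against −2.75 to −2.36), Ifit2 (−1.47 against −3.39 to −3.10) and Oasl2 (1.46 against −0.18 to 0.21). This clone sat on a slide with 3 clones of the 3F-PaS-iPS group, whereas the other 4 of its group shared 1 slide, and its fibroblast marker mean of 2.71 was the highest of its group. In Irf1, 4F-OP-iPS #2, one of the clones low in Nanog, was at 1.22 against 3.13 to 3.71 in the rest of its group, and 3F-OP-iPS #1 was at 3.80 against 2.69 to 3.01.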

How the results depend on the processing

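The difference between clones and ES cells rested on 2 ES arrays, scanned in other sessions than the clones and apart from each other. Dim signals limited Irf7 to bounds against both ES arrays and Usp18, Ifit1 and Ifit3 to bounds against EB-3. The number of the 9 genes called against ES cells was 7. It was 3 among probes above background on all clones and ES arrays, where the filter removes the probes dim in ES cells, and 5 to 7 when single arrays were left out. Of the 9 genes between 3F and 4F OP-iPS clones, 0 were called, but 1 (Usp18) with outlying backgrounds replaced before normexp, 2 with clones alone in the fit, 3 with the replicate block and 0 to 2 when single arrays were left out, where 4F-PaS-iPS #3 and #4, 4F-OP-iPS #4 and #5 or either ES array brought Rsad2, Oasl2 or Usp18 past the threshold. The second Irf1 probe made 1 call between 3F and 4F TTF-iPS clones. Clone numbers do not pair the samples, since 16 of 75 same-numbered pairs had deviations correlated above 0.1 (median −0.0004) and 6 of 30 clones were closest to a clone of their own number, and the replicate block changed the count of the 9 genes called in no other comparison among clones. Of the 9 correlations with fibroblast markers 8 passed, and 5 did with normexp and 5 without the 2 farthest clones. The cause of these changes was not tested.

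Over all probes, 3F against 4F PaS-iPS clones had 5 calls, 177 with normexp, and 0 with backgrounds replaced, probes above background everywhere, a random slide block, the replicate block or no clones low in Nanog (single arrays left out, 0 to 531). 3F against 4F OP-iPS clones had 1246, and 268, 553, 566, 2237, 168 and 58 with normexp, backgrounds replaced, probes above background everywhere, no fold minimum, a random slide block and no clones low in Nanog (457 to 2270). 3F against 4F TTF-iPS clones had 1595, and 481, 747, 671, 2790, 5 and 7 with normexp, backgrounds replaced, probes above background everywhere, no fold minimum, a fixed and a random slide block (840 to 1931). PaS-iPS against OP-iPS clones had 443, and 163, 222, 246, 1019 and 275 with normexp, backgrounds replaced, probes above background everywhere, no fold minimum and a fixed slide block (173 to 1269). PaS-iPS against TTF-iPS clones had 138, and 22, 53, 48, 359, 6 and 209 with normexp, backgrounds replaced, probes above background everywhere, no fold minimum, a random slide block and the replicate block (34 to 254). OP-iPS against TTF-iPS clones had 6, and 2, 1, 3, 3, 2, 0 and 16 with normexp, backgrounds replaced, quantile normalization, no filter, probes above background everywhere, a random slide block and no clones low in Nanog (1 to 291). Clones against ES cells had 10001, and 5157, 5683 and 6336 with normexp, backgrounds replaced and probes above background everywhere (8043 to 10207). Ifit2, called by its second probe, was at −0.88 by its main probe without EB-3 and at 2.34 without RF8. None of the 7 genes called against ES cells by their main probe changed sign under these alternatives.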
